A study of Mus musculus with 8 samples.

Results

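Whole septum input was compared between mice exposed to acute restraint stress (RS) and naive mice that were left in the home cage. The members of this comparison were the 4 input libraries of 8 libraries in all, namely 2 RS pools and 2 naive pools, and every gene symbol of the deposited tables was considered. All mice were C57Bl6J, and each library was made from the pooled septa of 4 to 6 mice, so that 1 value stands for a pool and not for an animal. RS mice spent 1 h in a flexible plastic cone. The labels place the killing 1 h after the restraint, whereas the methods place it after the stress without an interval, and which of these holds was not settled. Over the whole study, mice of both sexes aged 8 to 20 weeks were used, and the ages and sexes within these pools are not given in the sources used here. Xist was listed at 0.029 and 0.072 TPM in RS input, against 0.102 and 0.116 TPM in naive input. The Y-linked Ddx3y and Eif2s3y did not differ at the threshold used below. The sex of the pools was not tested. Input is RNA of the clarified tissue lysate, kept back before an antibody to phosphorylated S6 (pS6), a protein of the small ribosomal subunit, captured ribosomes of active cells. It holds the RNA of all cells that were dissected, whether or not they were active. The other 4 libraries were the captured fraction (pS6 IP) of the same conditions, with 2 RS and 2 naive pools, and serve for contrast and for the shared estimate of the spread. By the methods, input was set aside from the lysate used for capture, so that input and IP of a pool share their mice. The labels speak of 3 pools a group, of which 2 are analysed here.

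The lateral septum is a limbic nucleus made up mostly of GABAergic neurons, and it is linked to stress, anxiety and feeding. When neurons fire, calcium and cAMP signals activate factors such as CREB and SRF that wait on the promoters of immediate early genes, so that the mRNAs of transcription factors like Fos and Egr1 appear within minutes and decay soon after. Restraint also raises the adrenal hormone corticosterone, which enters the brain, binds the glucocorticoid receptor in neurons, glia and vessels, and switches on a separate group of genes.

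The deposited values were treated as TPM, that is transcripts per 1000000, since each column sums to 1000000, although they carry the name FPKM. Such a sum alone does not settle how transcript length entered the values. Sequencing depth is unknown, and error is judged from how far the 2 pools of a group lie apart. Input libraries listed 17292 to 17396 genes above 0, and 14365 of the 24972 symbols were tested. Across these genes the log2 values of the 2 RS pools correlated with r of 0.988 and those of the 2 naive pools with r of 0.989, against 0.978 to 0.983 between RS and naive pools, as a description with n = 14365 genes. Markers of GABAergic neurons were looked up, but they do not tell septum from other GABAergic tissue and so cannot check the tissue label. The GABA-synthesis genes Gad1 (285 and 267 TPM in RS pools, against 241 and 244 TPM in naive pools) and Gad2 were plainly present, whereas the vesicular GABA transporter Slc32a1 was low. Markers of striatal medium spiny neurons, which lie beside the septum, were abundant in both groups. Ppp1r1b (DARPP-32) had 2375 and 2272 TPM in RS pools, against 1697 and 1755 TPM in naive pools. How much of this came from neighbouring striatum was not tested.

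Promoters of the genes that rose are shown first, so that a short motif searched for in all of them can be seen. The 5 activity-regulated genes were picked from those that hold it, and Sgk1 as the glucocorticoid-responsive gene with the largest change. The 250 bases before the transcription start are given 5′ to 3′ along the gene, from RefSeq on build GRCm38.p6. Capitals mark TGACGTCA (the full cAMP response element, bound by CREB) or its shorter form TGACG on either strand, and in Sgk1 they mark AGAACA, an arm of the glucocorticoid receptor element. The windows lie at chr12:85473640-85473889 (plus strand) for Fos, at chr15:101266596-101266845 (plus strand) for the orphan nuclear receptor gene Nr4a1, and at chr17:26508473-26508722 (minus strand) for Dusp1, a phosphatase of MAP kinases. Those of the other three lie at chr11:101665291-101665540 (plus strand) for the small GTPase gene Arl4d, at chr13:110394794-110395043 (plus strand) for the polo-like kinase gene Plk2, and at chr10:21881934-21882183 (plus strand) for Sgk1, the serum- and glucocorticoid-regulated kinase.
Fos: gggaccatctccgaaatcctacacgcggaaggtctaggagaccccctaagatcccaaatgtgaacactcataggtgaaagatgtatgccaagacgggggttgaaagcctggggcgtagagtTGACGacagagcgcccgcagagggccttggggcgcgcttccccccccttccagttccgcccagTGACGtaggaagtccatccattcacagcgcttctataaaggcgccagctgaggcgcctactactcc
Nr4a1: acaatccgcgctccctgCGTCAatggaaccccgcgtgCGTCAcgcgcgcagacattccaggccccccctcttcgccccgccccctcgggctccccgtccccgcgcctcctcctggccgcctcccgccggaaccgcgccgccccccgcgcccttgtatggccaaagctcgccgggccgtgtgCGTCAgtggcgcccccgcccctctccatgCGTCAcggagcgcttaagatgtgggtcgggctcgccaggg
Dusp1: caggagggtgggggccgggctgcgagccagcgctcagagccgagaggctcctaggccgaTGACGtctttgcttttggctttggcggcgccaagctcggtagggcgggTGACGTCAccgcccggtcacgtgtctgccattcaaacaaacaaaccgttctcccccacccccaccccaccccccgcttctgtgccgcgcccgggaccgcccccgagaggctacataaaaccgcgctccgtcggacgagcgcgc
Arl4d: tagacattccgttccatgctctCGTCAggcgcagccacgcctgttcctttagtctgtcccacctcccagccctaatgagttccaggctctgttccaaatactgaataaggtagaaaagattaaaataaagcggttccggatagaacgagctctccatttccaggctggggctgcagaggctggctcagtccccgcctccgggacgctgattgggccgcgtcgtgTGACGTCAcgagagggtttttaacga
Plk2: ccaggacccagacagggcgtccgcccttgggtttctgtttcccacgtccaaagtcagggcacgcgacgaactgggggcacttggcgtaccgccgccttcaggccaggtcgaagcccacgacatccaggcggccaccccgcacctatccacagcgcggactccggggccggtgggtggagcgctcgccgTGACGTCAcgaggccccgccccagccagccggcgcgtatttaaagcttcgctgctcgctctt
Sgk1: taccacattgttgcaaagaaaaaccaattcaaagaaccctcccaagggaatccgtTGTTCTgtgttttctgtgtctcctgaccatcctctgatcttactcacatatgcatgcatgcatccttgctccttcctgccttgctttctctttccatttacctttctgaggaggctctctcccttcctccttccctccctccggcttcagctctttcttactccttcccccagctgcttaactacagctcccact
Fos held 2 copies of TGACG, whose first bases lie at -129 and -66 from the start, and Nr4a1 held 4. The full TGACGTCA began at -143 in Dusp1, -26 in Arl4d and -62 in Plk2, and a further TGACG began at -191 in Dusp1 and, on the other strand, at -228 in Arl4d. Over windows of 300 bases (250 before to 50 after the start, the first start listed for each gene), TGACGTCA was found in 6 of the 31 activity-regulated genes called higher that had a promoter in the table (19.4%, of 44 such genes), against 359 of 11208 tested genes (3.2%). TGACG, which TGACGTCA contains, was found in 18 of those 31 (58.1%) against 30.9% of tested genes. CArG boxes (CC, 6 bases of A or T, GG), the element of SRF, were found in 1 of 31 (3.23%) against 1.36%. GCGGGGGCG, the element of EGR proteins, was found in 4 of 31 (12.9%) against 5.42%. Of the 14 glucocorticoid-responsive genes called higher, 11 had a promoter in the table, and AGAACA was found in 1 of them (9.09%), which was Sgk1, against 12.5% of tested genes. The palindrome of 2 such arms 3 bases apart was found in 0 of 11 and in 0 of 11208. TTCNNGAA was found in 1 of 11 (9.09%) and in 2 of 31 (6.45%), against 6.76% of tested genes. These counts describe letters in these windows only.

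In limma, fitted on log2(TPM + 1) over all 8 libraries, 2917 genes were called higher in RS input (20.3% of those tested) and 1179 lower (8.21%) at an adjusted p under 0.05. At least 2-fold changes on this scale were called for 68 genes higher (0.473%) and 75 lower (0.522%), so most calls were of small changes. With the 4 input libraries alone, 2293 were higher and 921 lower. The RS pools lay wholly above the naive pools for 48.8% of the genes tested and wholly below them for 19.3%. Over all genes tested, the median log2 change was 0.13. Median-of-ratios scaling brought this median to 0.0014, with 1138 genes higher and 1771 lower, so that 39.1% of the calls were higher instead of 71.2%. Leaving out 1 pool gave 1070 higher and 674 lower without naive pool 1, 1311 and 725 without naive pool 2, 1085 and 786 without RS pool 1, and 2383 and 1144 without RS pool 2.

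The change in input also followed transcript length. Genes whose longest annotated transcript is under 1 kb had a median log2 change of -0.35 (23 higher and 386 lower of 895), those of 1 to 2 kb -0.06, those of 2 to 4 kb 0.13, those of 4 to 6 kb 0.26 and those over 6 kb 0.27 (576 higher and 16 lower of 1811). Both RS pools showed this against the naive mean, with -0.41 (pool 1) and -0.29 (pool 2) in the shortest class and 0.31 and 0.24 in the longest. In pS6 IP the same classes ran only from -0.04 to 0.04, and naive pool 2 minus naive pool 1 ran from -0.01 to 0.02. A correction for length and GC content, added after the data were seen, gave 943 genes higher and 1067 lower in input, and it is quoted below for most groups. Counts of list members below are to be read beside the totals of the same setting, since fewer genes of any kind were called higher in these settings. What made length and change move together was not tested.

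**Figure D1:**
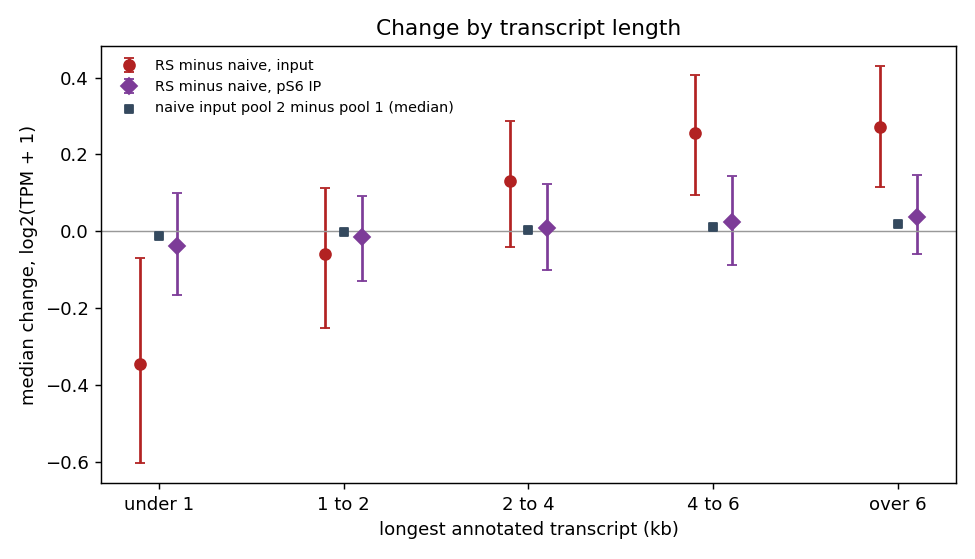
Median RS minus naive change in log2(TPM + 1) by length of the longest annotated transcript, in input (circles) and in pS6 IP (diamonds), with bars from the lower to the upper quartile over genes; squares give the median of naive input pool 2 minus pool 1. Input medians climb from -0.35 under 1 kb to 0.27 over 6 kb, while those of IP stay between -0.04 and 0.04.

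Immediate early transcription factors were higher in RS input. Of 27 listed, 24 were tested, and 16 were called higher and 0 lower, against 20.3% and 8.21% of all genes. Their median log2 change was 0.85, against 0.13 over all genes. Klf2, Klf4 and Myc were below the filter on low values. Summed over the list, these RNAs reached 807 and 724 TPM in RS pools, against 371 and 366 TPM in naive pools. The same number was called higher after median-of-ratios scaling, where Ier3 was called lower, and after the length and GC correction. Leaving out 1 pool gave 15 or 16 higher, and without RS pool 1 Ier3 and Npas4 were called lower.

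Fos, whose protein pairs with JUN to form AP-1, had 86.1 and 83.3 TPM in RS pools, against 35.3 and 33.3 TPM in naive pools (log2 change 1.28, SE 0.085, adjusted p = 0.000373). Its relative Fosb had 3.85 and 3.78 TPM in RS pools, against 1.19 and 0.557 TPM in naive pools (log2 change 1.38, SE 0.18, adjusted p = 0.00214), and the dimer partner Junb 61.7 and 56.5 TPM in RS pools, against 32.4 and 31.2 TPM in naive pools (log2 change 0.87, SE 0.074, adjusted p = 0.000777). In each case both RS pools lay above both naive pools, by 2.47-fold, 4.37-fold and 1.86-fold in mean TPM. The study had singled out Fos and Fosb on these samples, so that their direction is not independent evidence. Atf3, a stress-induced factor of the CREB family, had the largest fold among the named immediate early factors, with 13.9 and 12.8 TPM in RS pools, against 2.44 and 2.27 TPM in naive pools (log2 change 2.10, SE 0.15, adjusted p = 0.00043). The zinc finger factor Egr1 had 276 and 243 TPM in RS pools, against 110.4 and 114 TPM in naive pools (log2 change 1.20, SE 0.069, adjusted p = 0.000212). The weaker expressed Egr2 and Egr4 moved by a like amount, with 17.1 and 13.5 TPM in RS pools, against 5.33 and 5.68 TPM in naive pools for Egr2 (log2 change 1.32) and 13.4 and 11.9 TPM in RS pools, against 4.66 and 4.33 TPM in naive pools for Egr4 (log2 change 1.31). The orphan nuclear receptors followed the same order of pools. Nr4a1 had 111 and 103 TPM in RS pools, against 39 and 41.3 TPM in naive pools (log2 change 1.39, SE 0.075, adjusted p = 0.000154) and Nr4a2 10.8 and 10.2 TPM in RS pools, against 3.89 and 3.87 TPM in naive pools (log2 change 1.24, SE 0.11, adjusted p = 0.00104). Klf10, a factor induced by TGF-beta, had 48.9 and 47.5 TPM in RS pools, against 19.7 and 13.8 TPM in naive pools (log2 change 1.49, SE 0.23, adjusted p = 0.00363), with the 2 naive pools farther apart than the 2 RS pools. One well-known member did not join them. Npas4, a factor that answers calcium entry in neurons and is named here after its values were seen, had 16.9 and 10.2 TPM in RS pools, against 19.9 and 17.8 TPM in naive pools (log2 change -0.49, SE 0.21, adjusted p = 0.126), below the naive pools in both RS pools but not called, with a log2 change of -0.83 and an adjusted p of 0.0251 without RS pool 1.

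**Figure D2:**
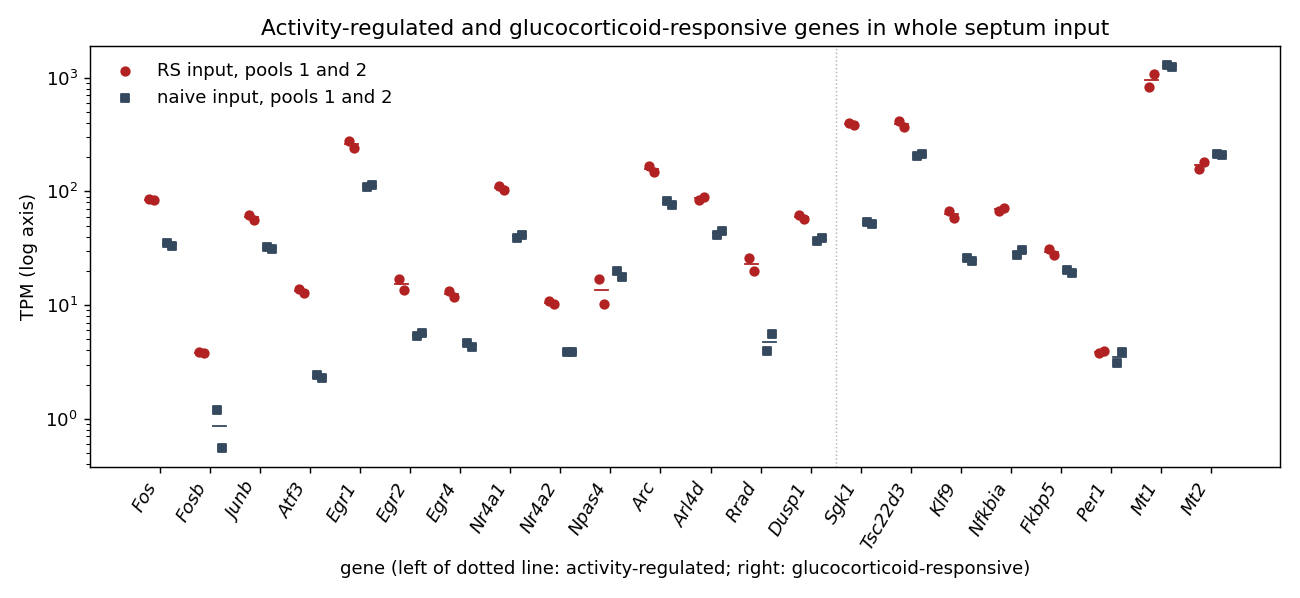
TPM on a log axis of 14 activity-regulated and 8 glucocorticoid-responsive genes in RS input (circles, pools 1 and 2) and naive input (squares, pools 1 and 2), with short lines at the mean of each pair. RS pools lie above naive pools for all genes shown except Npas4, Mt1 and Mt2, which lie below them, and Per1, whose pools overlap at 3.83 and 3.96 TPM in RS pools, against 3.11 and 3.85 TPM in naive pools.

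Effector genes induced by activity were higher as well, with a median of 0.60. Of 27 tested, 20 were called higher and 0 lower, against 20.3% and 8.21% of all genes. The 20 called higher fell to 15 after median-of-ratios scaling, where Rgs2 was lower, and to 14 after the length and GC correction. The list median minus that of all genes was 0.47 in the main fit, 0.46 after the scaling and 0.43 after the correction. It was 0.40 to 0.46 with a pool left out. Ptgs2, Inhba and Pim1 were below the filter. Arc, which controls glutamate receptor trafficking, had 169 and 147 TPM in RS pools, against 82.7 and 76.1 TPM in naive pools (log2 change 0.98, SE 0.087, adjusted p = 0.000907). The small GTPase gene Arl4d had 83.8 and 90.2 TPM in RS pools, against 41.2 and 44.7 TPM in naive pools (log2 change 1.00, SE 0.068, adjusted p = 0.000387). Rrad, a GTPase that damps calcium channels, stood out with 25.8 and 19.8 TPM in RS pools, against 3.97 and 5.58 TPM in naive pools (log2 change 2.05, SE 0.21, adjusted p = 0.00126), a 4.77-fold higher mean TPM. Its relative Gem had 3.9 and 3.9 TPM in RS pools, against 1.06 and 1.36 TPM in naive pools (log2 change 1.15, SE 0.15, adjusted p = 0.002), with RS pools alike and above both naive pools. The more abundant Rgs4, Plk2 and Scg2 had smaller log2 changes. Rgs4, which shortens G-protein signals, had 394 and 353 TPM in RS pools, against 239 and 238 TPM in naive pools (log2 change 0.64), the kinase gene Plk2 263 and 236 TPM in RS pools, against 157 and 151 TPM in naive pools (log2 change 0.69), and secretogranin gene Scg2 338 and 327 TPM in RS pools, against 249 and 230.4 TPM in naive pools (log2 change 0.47). The kinase gene Plk3 had 18.9 and 17.5 TPM in RS pools, against 10.4 and 10.03 TPM in naive pools (log2 change 0.78, SE 0.094, adjusted p = 0.0018).

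Inhibitors that act back on the ERK pathway had a median of 0.40, with 8 of 14 members called higher and 0 lower, against 20.3% and 8.21% of all genes. After median-of-ratios scaling 7 were higher, and after the length and GC correction 8. Dusp1, which removes phosphate from MAP kinases, had 61.7 and 57.5 TPM in RS pools, against 36.6 and 38.9 TPM in naive pools (log2 change 0.65, SE 0.083, adjusted p = 0.00204). Errfi1, an inhibitor of EGF receptor kinases that also answers glucocorticoids, had 80.7 and 75 TPM in RS pools, against 37.8 and 35.2 TPM in naive pools (log2 change 1.07, SE 0.073, adjusted p = 0.000398). Dusp5, a phosphatase of nuclear ERK, and Spry4, an inhibitor of receptor tyrosine kinase signals, were less abundant. Dusp5 had 4.71 and 5.88 TPM in RS pools, against 2.85 and 1.79 TPM in naive pools (log2 change 0.94, SE 0.18, adjusted p = 0.00763) and Spry4 12.2 and 11.3 TPM in RS pools, against 7.24 and 5.48 TPM in naive pools (log2 change 0.80, SE 0.14, adjusted p = 0.00606), with the 2 groups of pools apart in both. Genes that limit cAMP signals had 7 of 12 members higher and 0 lower (median 0.37), beside the same shares of all genes. After median-of-ratios scaling 5 were higher, and after the length and GC correction 3. Their median minus that of all genes was 0.24 in the main fit, 0.22 after the scaling and 0.20 after the correction. It was 0.20 to 0.28 with a pool left out. The phosphodiesterase gene Pde4b had 110.2 and 99.1 TPM in RS pools, against 75.5 and 74.5 TPM in naive pools (log2 change 0.47, SE 0.075, adjusted p = 0.00411).

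Glucocorticoid-responsive genes formed the second group. Of 30 listed, 29 were in the tables and 25 were tested, with 14 called higher, 2 lower and a median of 0.54. Of all genes, 20.3% were called higher and 8.21% lower, with a median of 0.13, so that the lower share of the list was near that of all genes. After median-of-ratios scaling 13 were higher and 3 lower (Mt1, Mt2 and Rhob), and after the length and GC correction 12 and 0. Without 1 pool 11 to 14 were higher. Sgk1 had the largest change of the list, with 397 and 381 TPM in RS pools, against 54.2 and 52.1 TPM in naive pools, a 7.32-fold higher mean TPM (log2 change 2.85, SE 0.078, adjusted p = 3.12e-06), and the pools of a group differed by far less than the groups. Tsc22d3 (GILZ), an anti-inflammatory leucine zipper protein, had 416 and 368 TPM in RS pools, against 205 and 214 TPM in naive pools (log2 change 0.90, SE 0.067, adjusted p = 0.000612). Nfkbia, which holds NF-kB in the cytoplasm, had 68 and 71.7 TPM in RS pools, against 27.5 and 30.6 TPM in naive pools (log2 change 1.24, SE 0.10, adjusted p = 0.000723). Klf9, a Krüppel-like factor of neurons and glia, had 67.4 and 58.6 TPM in RS pools, against 26.1 and 24.2 TPM in naive pools (log2 change 1.29, SE 0.11, adjusted p = 0.000789). The cell cycle inhibitor gene Cdkn1a had 42.5 and 36.3 TPM in RS pools, against 22.7 and 23.6 TPM in naive pools (log2 change 0.74), the factor gene Cebpb 3.74 and 3.24 TPM in RS pools, against 1.34 and 1.58 TPM in naive pools (log2 change 0.87), and the glycerol-3-phosphate dehydrogenase gene Gpd1, an enzyme of oligodendrocytes in brain, 127 and 121 TPM in RS pools, against 73.5 and 71.6 TPM in naive pools (log2 change 0.77). Each had RS pools above naive pools.

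The next 4 members of the list are named after their values were seen, because they are standard targets or went the other way. Fkbp5, a co-chaperone of the receptor, had 31.1 and 27.4 TPM in RS pools, against 20.5 and 19.1 TPM in naive pools (log2 change 0.54, SE 0.093, adjusted p = 0.00562). Per1, also a clock gene, had 3.83 and 3.96 TPM in RS pools, against 3.11 and 3.85 TPM in naive pools (log2 change 0.13, SE 0.13, adjusted p = 0.46), so that its pools overlapped. The metallothionein genes Mt1 and Mt2, which bind zinc and are induced by glucocorticoids, were the 2 called lower. Mt1 had 829.7 and 1076 TPM in RS pools, against 1292 and 1246 TPM in naive pools (log2 change -0.42, SE 0.10, adjusted p = 0.0177) and Mt2 159 and 182 TPM in RS pools, against 214 and 207 TPM in naive pools (log2 change -0.31, SE 0.072, adjusted p = 0.017). Neither call held after the length and GC correction, where Mt1 had -0.24 (adjusted p = 0.105) and Mt2 turned to 0.05 (adjusted p = 0.61). Without naive pool 1 or 2 the adjusted p was 0.092 and 0.0637 for Mt1, and 0.0947 and 0.0608 for Mt2, which was also not called without RS pool 1 (adjusted p = 0.0727).

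Among 19 clock genes, 10 were called higher and 0 lower (median 0.36), against 20.3% and 8.21% of all genes. After median-of-ratios scaling 3 were higher, with 1138 higher over all genes, and after the length and GC correction 4, with 943 over all genes. The list median minus that of all genes was 0.23 before and after the scaling and 0.14 after the correction. It was 0.20 to 0.24 with a pool left out. The 3 left by the scaling were Bhlhe40, a repressor induced by activity, with 50.6 and 46.9 TPM in RS pools, against 30.2 and 30.4 TPM in naive pools (log2 change 0.67, SE 0.074, adjusted p = 0.0015), Npas2, a partner of BMAL1, with 37.3 and 37.2 TPM in RS pools, against 24.7 and 24.3 TPM in naive pools (log2 change 0.59, SE 0.076, adjusted p = 0.00214), and Tef. Nfil3, a repressor counted under both the clock and the cAMP list, had 32.5 and 34.1 TPM in RS pools, against 24.6 and 25.4 TPM in naive pools (log2 change 0.40, SE 0.075, adjusted p = 0.00766), with an adjusted p of 0.0514 after that scaling and 0.0538 without naive pool 1.

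Heat shock and chaperone genes had calls in both directions. Of 20, 7 were called higher and 2 lower, against 20.3% and 8.21% of all genes, so that the lower share was near that of all genes. The median was 0.21, against 0.13 over all genes. After median-of-ratios scaling 4 were higher and 5 lower, after the length and GC correction 5 and 3, and without RS pool 2 4 were lower. Hspa8, the constitutive HSP70 of neurons, had 4168 and 3850 TPM in RS pools, against 3057 and 3007 TPM in naive pools (log2 change 0.40, SE 0.041, adjusted p = 0.00131). Its helpers Dnajb1 and Hsph1 shared the direction, with 151 and 146 TPM in RS pools, against 102 and 98.7 TPM in naive pools for Dnajb1 (log2 change 0.56, SE 0.063, adjusted p = 0.00154) and 276 and 249 TPM in RS pools, against 174 and 187 TPM in naive pools for Hsph1 (log2 change 0.54, SE 0.075, adjusted p = 0.00263). Hspe1, the mitochondrial chaperonin whose transcript is short, was lower with 97.4 and 103 TPM in RS pools, against 159 and 153 TPM in naive pools (log2 change -0.63, SE 0.052, adjusted p = 0.000723), and Dnajb5 was the other member called lower. The inducible Hspa1a and Hspa1b were not called. Endoplasmic reticulum stress genes had 3 of 16 higher (Asns, Dnajc3 and Hspa5) and 3 lower (Atf4, Ddit3 and Manf), so that the higher share was near that of all genes. A count of 1 was higher after median-of-ratios scaling and without naive pool 1, naive pool 2 or RS pool 1, and 1 was lower without RS pool 1. Atf4, the factor of the integrated stress response, had 228 and 284 TPM in RS pools, against 349 and 354 TPM in naive pools (log2 change -0.46, SE 0.088, adjusted p = 0.00774).

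Neuropeptide genes leaned lower, with 3 of 24 tested called higher and 7 lower, against 20.3% and 8.21% of all genes, and a median of -0.27. In 13 members both RS pools lay below both naive pools, against 19.3% of all genes. These transcripts are short (list median 1140.5 nt), and of all genes 16.5% were called lower at 1 to 2 kb and 43.1% under 1 kb. After the length and GC correction the list median was -0.06, with 3 higher (Penk, Pdyn and Crh) and 2 lower (Cartpt and Vip). After median-of-ratios scaling 1 was higher (Penk) and 9 lower. Leaving out 1 pool left 2 lower without either naive pool, 4 without RS pool 1 and 7 without RS pool 2. Cartpt, which encodes the CART peptide, had 91.1 and 108 TPM in RS pools, against 167 and 159 TPM in naive pools (log2 change -0.71, SE 0.078, adjusted p = 0.0015). Tac2, which encodes neurokinin B, had 45.6 and 53.8 TPM in RS pools, against 73.1 and 68.2 TPM in naive pools (log2 change -0.50, SE 0.09, adjusted p = 0.00659), with an adjusted p of 0.0562 after the correction. Sst (somatostatin) had 416 and 469 TPM in RS pools, against 529 and 536 TPM in naive pools (log2 change -0.27, SE 0.058, adjusted p = 0.0122), with a log2 change of -0.0037 after the correction and an adjusted p of 0.0615 and 0.0682 without naive pool 1 and 2. Nts (neurotensin), on chromosome 10, had 19.8 and 21.6 TPM in RS pools, against 25.6 and 24.9 TPM in naive pools (log2 change -0.28, SE 0.11, adjusted p = 0.0881). It lay below the naive pools in both RS pools without being called, and it was called lower after median-of-ratios scaling (log2 change -0.42, adjusted p = 0.0383), whereas its change was -0.089 (adjusted p = 0.517) after the length and GC correction.

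Penk, which encodes enkephalins and is abundant in striatal neurons, was the firmest of the 3 higher peptides, with 1837 and 1841 TPM in RS pools, against 1373 and 1359 TPM in naive pools (log2 change 0.43, SE 0.032, adjusted p = 0.000612). Pdyn (dynorphin) had 169.7 and 158 TPM in RS pools, against 137 and 134 TPM in naive pools (log2 change 0.27, SE 0.063, adjusted p = 0.0163), and its call was lost after median-of-ratios scaling (adjusted p = 0.202), without naive pool 1 (0.0677), naive pool 2 (0.0872) or RS pool 1 (0.0855). Crh (corticotropin-releasing hormone) had 6.93 and 7.22 TPM in RS pools, against 5.19 and 5.5 TPM in naive pools (log2 change 0.35, SE 0.10, adjusted p = 0.0366), and its call was lost whichever pool was left out (adjusted p of 0.0955 to 0.156). Receptors of feeding and stress peptides gave few calls, with a median of 0.11. Of 23, 2 were called higher (Oprd1 and Ntsr2) and 0 lower, against 20.3% and 8.21% of all genes. After median-of-ratios scaling or after the length and GC correction, 0 were called higher. Glp1r, the receptor of glucagon-like peptide, had 16.3 and 13.3 TPM in RS pools, against 14.4 and 10.9 TPM in naive pools (log2 change 0.21, SE 0.17, adjusted p = 0.369), so that the pools overlapped, and -0.04 after the correction. Mc3r, a melanocortin receptor, had 4.28 and 4.74 TPM in RS pools, against 5.6 and 8.7 TPM in naive pools (log2 change -0.54, SE 0.19, adjusted p = 0.0625) and was called without naive pool 1 (log2 change -0.82, adjusted p = 0.0263) and after median-of-ratios scaling (-0.65, adjusted p = 0.0437).

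Markers of cell types also differed between RS and naive input. Beside the counts of markers below, 20.3% of all genes were called higher and 8.21% lower. In bulk tissue, fewer cells of a type and less RNA per cell cannot be told apart. Of 13 striatal neuron markers 9 were higher and 0 lower (median 0.47), with 9 after median-of-ratios scaling and 8 after the length and GC correction, while the same list had a median of 0.0031 in pS6 IP. Their summed level was 3676 and 3402 TPM in RS pools, against 2576 and 2644 TPM in naive pools. Besides Ppp1r1b (log2 change 0.43, SE 0.043, adjusted p = 0.0012), the dopamine receptor gene Drd1 had 48.5 and 42.2 TPM in RS pools, against 32.7 and 29.6 TPM in naive pools (log2 change 0.53, SE 0.092, adjusted p = 0.00594) and the sodium channel subunit gene Scn4b 71.7 and 66.2 TPM in RS pools, against 43.6 and 43.4 TPM in naive pools (log2 change 0.65, SE 0.082, adjusted p = 0.0019). Both RS pools exceeded both naive pools for each of them. Of 15 GABAergic septal markers 2 were higher, Gad1 among them, and 2 lower (Sst and Zic1). These became 1 and 5 after median-of-ratios scaling, 1 and 4 after the length and GC correction, 1 and 0 without naive pool 1 or naive pool 2, and 1 and 1 without RS pool 1. Slc32a1 had 4.99 and 6.07 TPM in RS pools, against 7.17 and 6.66 TPM in naive pools (log2 change -0.28, SE 0.12, adjusted p = 0.118), called lower after the length and GC correction (-0.47, adjusted p = 0.0416). Of 11 glutamatergic markers 5 were higher, Slc17a7, Nrgn, Prox1 and Neurod2 among them, and 0 lower. After median-of-ratios scaling, and again after the length and GC correction, 2 were higher and 1 lower (Camk2a). Their median minus that of all genes was 0.16 in the main fit and in both of these settings. It was 0.098 to 0.23 with a pool left out. Slc17a7, the vesicular glutamate transporter of cortex and hippocampus, had 171 and 165 TPM in RS pools, against 123 and 124 TPM in naive pools (log2 change 0.44, SE 0.06, adjusted p = 0.00248). Pan-neuronal genes had 8 of 18 higher and 4 lower (Stmn2, Uchl1, Gap43 and Thy1), which became 5 and 2 without naive pool 1 and 4 and 2 without naive pool 2, with 5 higher without RS pool 1. They were 3 and 4 after median-of-ratios scaling and 1 and 2 after the length and GC correction. The part of the striatal and glutamatergic markers in the changes of other genes was not tested.

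Astrocyte and oligodendrocyte markers had more calls higher than lower. Of 15 astrocyte markers 10 were higher and 2 lower (Fabp7 and S100b), with a median of 0.41, and 6 were higher after median-of-ratios scaling and 6 after the length and GC correction. Their median minus that of all genes was 0.28 in the main fit, 0.26 after the scaling and 0.21 after the correction. It was 0.27 to 0.30 with a pool left out. Glul, the glutamine synthetase gene, which glucocorticoids induce, had 392 and 297 TPM in RS pools, against 174 and 161 TPM in naive pools (log2 change 1.02, SE 0.13, adjusted p = 0.00215). Gja1 (connexin 43) had 105 and 87.4 TPM in RS pools, against 50.2 and 49.5 TPM in naive pools (log2 change 0.93, SE 0.09, adjusted p = 0.00119), and the glutamate transporter gene Slc1a3 160.4 and 149 TPM in RS pools, against 100.4 and 105 TPM in naive pools (log2 change 0.59, SE 0.057, adjusted p = 0.00119). Gfap, the astrocyte filament gene, had 144 and 141 TPM in RS pools, against 132 and 121 TPM in naive pools (log2 change 0.17, SE 0.063, adjusted p = 0.075). Oligodendrocyte markers had 9 of 15 higher and 1 lower (Cldn11), with a median of 0.27, and 6 were higher after median-of-ratios scaling and after the length and GC correction. The iron carrier gene Trf had 1417 and 1275 TPM in RS pools, against 802 and 833 TPM in naive pools (log2 change 0.72, SE 0.055, adjusted p = 0.000668) and the myelin enzyme gene Cnp 1339 and 1214 TPM in RS pools, against 875 and 856 TPM in naive pools (log2 change 0.56, SE 0.052, adjusted p = 0.00104). Mbp (myelin basic protein) had 5271 and 4885 TPM in RS pools, against 4328 and 4253 TPM in naive pools (log2 change 0.24, SE 0.044, adjusted p = 0.00707), a call that was lost after median-of-ratios scaling (log2 change 0.094, adjusted p = 0.178), after the length and GC correction (0.01, adjusted p = 0.862) and without naive pool 2 (adjusted p = 0.0529). Mal, another myelin gene, had 100.4 and 109.6 TPM in RS pools, against 105 and 103 TPM in naive pools (log2 change 0.016, SE 0.065, adjusted p = 0.879), with overlapping pools and a sign that turned with the scaling. Of 11 precursor markers 4 were higher (Pdgfra, Gpr17, Olig1 and Enpp6), and 2 after median-of-ratios scaling, after the length and GC correction and without naive pool 1. Pdgfra, the receptor for PDGF-A, had 10.8 and 11.8 TPM in RS pools, against 4.94 and 5.33 TPM in naive pools (log2 change 1.00, SE 0.15, adjusted p = 0.00303). Microglia markers had 3 of 15 higher (Cx3cr1, Tmem119 and Csf1r) and 2 lower (Tyrobp and Ly86), a higher share near that of all genes. None was higher after median-of-ratios scaling, after the length and GC correction or without naive pool 1, naive pool 2 or RS pool 1, 1 was higher without RS pool 2, and 0 were lower after the length and GC correction. Tyrobp, a signalling adaptor with a short transcript, had 26 and 26.4 TPM in RS pools, against 37.7 and 40.6 TPM in naive pools (log2 change -0.56, SE 0.077, adjusted p = 0.00248), and -0.23 after the correction (adjusted p = 0.132).

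Choroid plexus markers had the largest median change of the cell type lists used here. This epithelium fills part of the ventricles beside the septum and makes cerebrospinal fluid. Of 16 markers tested 10 were higher and 0 lower (median 0.73), 9 after median-of-ratios scaling, 7 after the length and GC correction, and 5 or 6 without naive pool 1, naive pool 2 or RS pool 1. Ttr, the thyroid hormone carrier that marks this tissue, had 259 and 309 TPM in RS pools, against 7.62 and 9.32 TPM in naive pools, a 33.5-fold higher mean TPM (log2 change 4.91, SE 0.10, adjusted p = 7.6e-07). Folr1, a folate receptor, had 6.78 and 11.2 TPM in RS pools, against 0.823 and 0.428 TPM in naive pools (log2 change 2.59, SE 0.25, adjusted p = 0.00118). Kcne2, a potassium channel subunit, had 2.73 and 3.15 TPM in RS pools, against 0.216 and 0.525 TPM in naive pools (log2 change 1.53, SE 0.18, adjusted p = 0.00165) and the tight junction gene Cldn2 1.67 and 2.52 TPM in RS pools, against 0.149 and 0.434 TPM in naive pools (log2 change 1.26, SE 0.19, adjusted p = 0.00332). Enpp2 (autotaxin), also made by oligodendrocytes, had 202 and 191 TPM in RS pools, against 97.1 and 87 TPM in naive pools (log2 change 1.09, SE 0.065, adjusted p = 0.000224). Each of these had both RS pools above both naive pools. The defining factor Otx2 did not follow, with 7.25 and 4.78 TPM in RS pools, against 6.00 and 7.20 TPM in naive pools, and Aqp1 and Sostdc1 were not called either. Summed, the list reached 553 and 604 TPM in RS pools, against 174 and 161 TPM in naive pools. The part of this epithelium in the changes of other genes was not tested.

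Vessel and ventricle-lining markers had more calls lower than higher, against 20.3% higher and 8.21% lower over all genes. Of 6 endothelial markers tested (of 12 listed) 2 were lower (Ly6c1 and Cldn5) and 1 higher (Slc2a1), and in each of the scaling, correction and left-out pool settings 0 were higher and 2 or 3 lower. Ly6c1, an antigen of endothelium, had 8.73 and 6.46 TPM in RS pools, against 19.8 and 19.2 TPM in naive pools (log2 change -1.26, SE 0.16, adjusted p = 0.00189), and Cldn5, its tight junction gene, 0.902 and 0.418 TPM in RS pools, against 4.99 and 2.74 TPM in naive pools (log2 change -1.53, SE 0.24, adjusted p = 0.004). Of 8 mural cell markers 4 were lower (Tagln, Acta2, Myl9 and Vtn) and 0 higher, with 4 lower after median-of-ratios scaling and 3 after the length and GC correction. The smooth muscle genes Tagln and Acta2 had 15.1 and 14 TPM in RS pools, against 26.2 and 22.2 TPM in naive pools for Tagln (log2 change -0.69, SE 0.092, adjusted p = 0.00226) and 13.8 and 14.9 TPM in RS pools, against 19.8 and 20.1 TPM in naive pools for Acta2 (log2 change -0.45, SE 0.083, adjusted p = 0.00728). Ptgds, the prostaglandin D synthase of meninges and oligodendrocytes, had 1108 and 1180 TPM in RS pools, against 1883 and 1865 TPM in naive pools (log2 change -0.71, SE 0.04, adjusted p = 0.000191), and was the 1 meningeal marker of 10 called lower, against 1 higher (Igfbp6). The meningeal list had 1 higher and 3 lower after the length and GC correction. Of 12 ependymal markers 5 were lower (Dynlrb2, Fam183b, Pifo, Enkur and Ccdc153), with 0 after the length and GC correction, 2 without naive pool 1 and 3 without either RS pool. Blood markers had 1 of 9 higher (Alas2) and 2 lower (Hbb-b1 and Hbb-b2), but 2 and 0 after the length and GC correction and 0 and 0 without naive pool 1. Cytokine genes had 1 of 10 higher (Tnfaip3) and 3 lower (Ccl4, Cxcl12 and Ccl3), and 0 and 3 after median-of-ratios scaling. The chemokine gene Ccl4 was listed at 0 in both RS pools, against 2.20 and 1.71 TPM in naive pools, and 10 of the 20 cytokine genes, Il6 and Tnf among them, were below the filter.

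**Figure D3:**
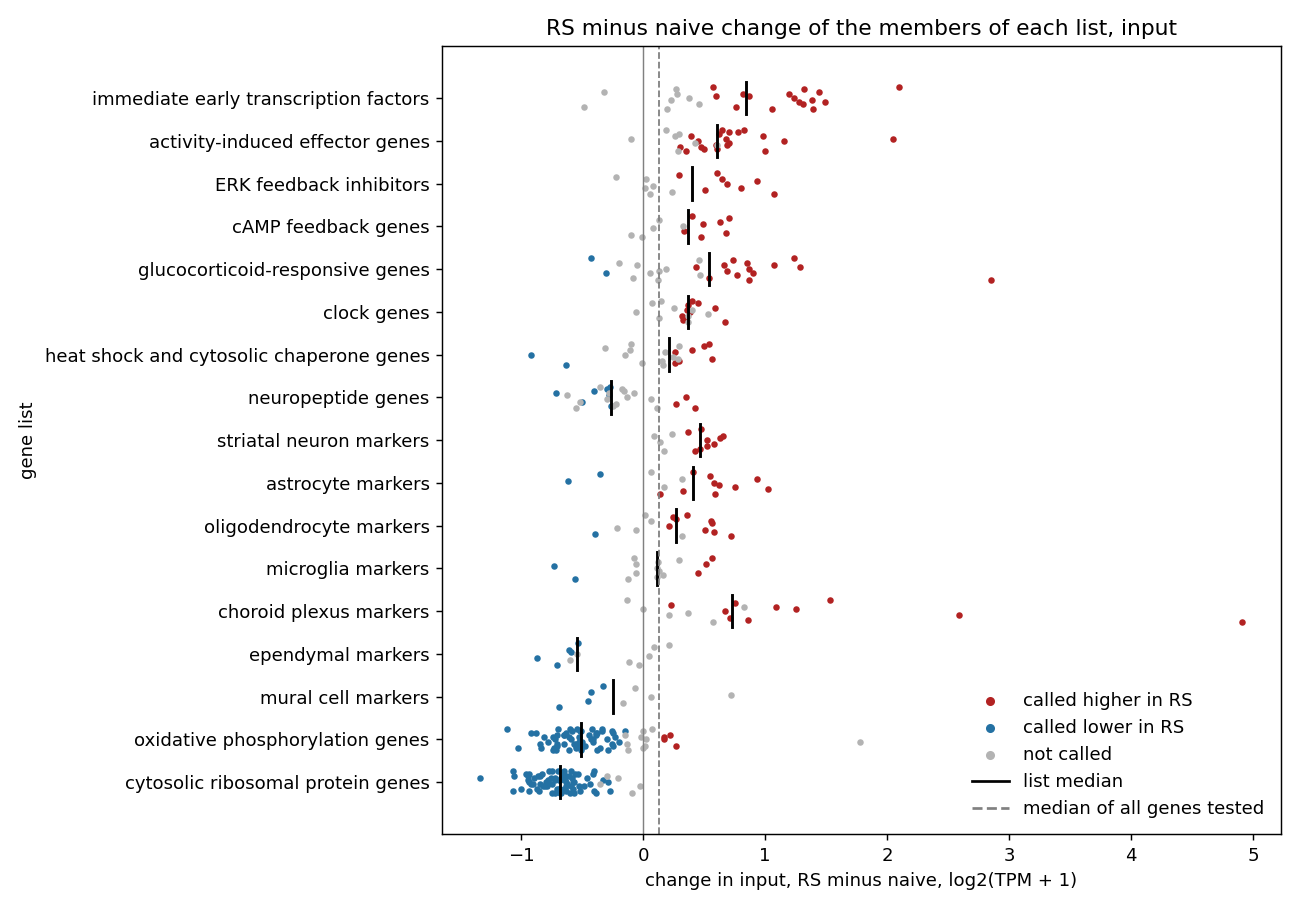
RS minus naive change in input, in log2(TPM + 1), of the tested members of 17 gene lists, 1 point a gene, coloured by whether it was called higher, lower or neither; black bars give list medians and the dashed line the median of all genes tested (0.13). The immediate early factors (median 0.85) and choroid plexus markers (0.73) lie farthest to the right, and ribosomal protein genes (-0.68) farthest to the left.

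Genes of the protein-making and respiratory machinery were lower almost as whole groups. Of 80 cytosolic ribosomal protein genes 75 were lower and 0 higher, against 8.21% lower of all genes, with a median of -0.68. Summed, they made up 16309 and 20043 TPM in RS pools, against 28959 and 28907 TPM in naive pools, so that RS pool 1 was the lower of the RS pools. Their transcripts are short (median 1077 nt of the longest form). Of all genes tested, 43.1% were lower under 1 kb and 16.5% at 1 to 2 kb. After the length and GC correction, which took the longest annotated form, 74 ribosomal protein genes were lower (median -0.53), and 78 after median-of-ratios scaling. With a pool left out their median ran from -0.83 to -0.54. Rps21 had 132 and 167 TPM in RS pools, against 304 and 323 TPM in naive pools (log2 change -1.07, SE 0.10, adjusted p = 0.00101), Rpl36 179 and 228 TPM in RS pools, against 404 and 409 TPM in naive pools (log2 change -1.0, SE 0.10, adjusted p = 0.00118) and Rps7 199 and 209.8 TPM in RS pools, against 338 and 319 TPM in naive pools (log2 change -0.68, SE 0.052, adjusted p = 0.000661). These genes share reads with many pseudogenes, which leaves single members uncertain. Of 75 oxidative phosphorylation genes 61 were lower, 4 higher (Ndufv1, Atp5a1, Ndufs1 and Uqcrc1), with a median of -0.51. After the length and GC correction 44 were lower and 1 higher, with a median of -0.26, and the 4 higher became 2 without naive pool 1, naive pool 2 or RS pool 1. Cox7b, a subunit of cytochrome c oxidase, had 247 and 281 TPM in RS pools, against 432 and 451 TPM in naive pools (log2 change -0.74, SE 0.073, adjusted p = 0.00119), and Ndufb3, of complex I, 334 and 379 TPM in RS pools, against 560.5 and 558 TPM in naive pools (log2 change -0.65, SE 0.061, adjusted p = 0.00104). Replication-dependent histone genes, which also share reads between copies, had 8 of 28 lower and 2 higher, with 4 lower after the length and GC correction and without naive pool 1 or RS pool 1. Of 13 long noncoding RNAs 3 were lower (Gas5, Snhg11 and Miat) and 2 higher (Malat1 and Peg13), but 5 were lower and 0 higher after median-of-ratios scaling and after the length and GC correction. Gas5, a host of small nucleolar RNAs whose transcript begins with a pyrimidine tract like those of ribosomal protein genes, had 139 and 176 TPM in RS pools, against 310.2 and 307 TPM in naive pools (log2 change -0.97, SE 0.10, adjusted p = 0.0012), and exons of Gas5 overlap small RNA genes in the annotation.

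Other genes with large changes belonged to no list. Chtf8, a factor of chromosome cohesion, had 105 and 90.2 TPM in RS pools, against 19 and 19.5 TPM in naive pools, a 5.07-fold higher mean TPM (log2 change 2.28, SE 0.09, adjusted p = 2.18e-05). Its exons overlap those of Has3 on the other strand, and since the sources do not say that strand was kept, reads of both may be mixed. The same holds for Junb (with Prdx2), Dusp1 (Ergic1), Cebpb (Tmem189), Hspe1 (Hspd1), Cnp (Dnajc7) and Tagln (Pcsk7). Exons on the other strand also overlap those of Plk3, Glul, Rrad, Penk, Ppp1r1b, Enpp2, Bhlhe40, Cdkn1a, Dusp5, Gpd1, Mt2, Pdgfra and Slc32a1. Amd1, of polyamine synthesis, which shares sequence with Amd2, had 16.4 and 16 TPM in RS pools, against 5.03 and 4.86 TPM in naive pools (log2 change 1.53, SE 0.17, adjusted p = 0.0016), and Plekhf1, an endosomal protein, 42.6 and 46.4 TPM in RS pools, against 13 and 14.4 TPM in naive pools (log2 change 1.63, SE 0.18, adjusted p = 0.00149). Lower genes included the splicing factor gene Prpf19 with 22.4 and 29.6 TPM in RS pools, against 73.1 and 73.8 TPM in naive pools (log2 change -1.48, SE 0.12, adjusted p = 0.000723). Ly6a, an antigen of vessels, had 4.01 and 4.21 TPM in RS pools, against 13.9 and 11.8 TPM in naive pools (log2 change -1.43, SE 0.12, adjusted p = 0.000723). Chtf8, Amd1, Plekhf1, Prpf19 and Ly6a were picked by a rule that admits only genes whose pools do not overlap. That their pools were apart is therefore no added support. Of the 68 genes at least 2-fold higher, 7 were listed at 0 in both naive pools, and of the 75 at least 2-fold lower, 12 were listed at 0 in both RS pools. MicroRNA genes such as Mir344i (higher) and Mir1291 (lower) were among them, and no fold is given for these.

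Input and pS6 IP were set side by side to see whether the whole tissue moved as the captured ribosomes did. In IP 285 genes were higher in RS (1.98%) and 47 lower (0.327%), far fewer than in input. Of the 2917 genes higher in input 194 were also higher in IP, which is 6.65% of the input calls and 68.1% of the IP calls. Of the 1179 lower in input 21 were also lower in IP (1.78%), and 10 genes were called in opposite directions. The difference between the changes (IP minus input) was called higher for 473 genes (3.29%) and lower for 497 (3.46%). These counts fell to 25 and 14 without naive input pool 1 and to 16 and 8 without naive input pool 2, so that single differences below are values to be read with that limit.

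Immediate early factors had a median change of 1.09 in IP and 0.85 in input, and 4 of 24 had a called difference, each with the larger change in IP (Fos, Fosb, Junb and Atf3). Fos had 2.12 in IP against 1.28 in input (difference 0.84, adjusted p = 0.0181), and Atf3 3.31 against 2.10. Egr1 had 1.17 against 1.20 (difference -0.028, adjusted p = 0.885). Glucocorticoid-responsive genes did not move as 1 group. Sgk1 had 1.77 in IP against 2.85 in input (difference -1.08, adjusted p = 0.00888), Klf9 0.00064 against 1.29 (difference -1.29, adjusted p = 0.0141), and Fkbp5 -0.35 against 0.54 (difference -0.89, adjusted p = 0.0187). Tsc22d3 had 1.02 against 0.90, and Nfkbia 1.15 against 1.24, with no called difference. Ribosomal protein genes had a median of -0.06 in IP against -0.68 in input, with 57 of 80 called different, and oxidative phosphorylation genes -0.03 against -0.51, with 43 of 75. Chtf8, with -0.13 in IP against 2.28 in input, was called different in every alternative that gave the test. The mural gene Acta2 had 0.81 in IP (adjusted p = 0.0024) against -0.45 in input, and Tagln 0.42 (adjusted p = 0.0637) against -0.69. Both differences were called in every such alternative. Choroid plexus genes had medians of 1.33 in IP and 0.73 in input, and Ttr had 6.07 against 4.91.

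**Figure D4:**
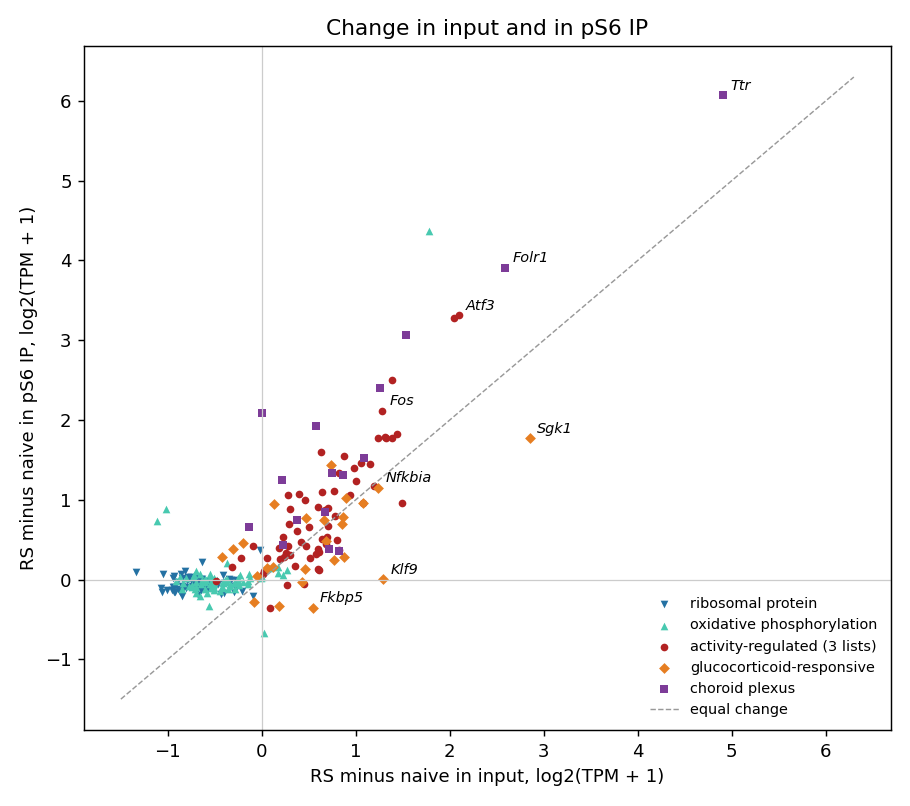
RS minus naive change in log2(TPM + 1) in input (horizontal) against that in pS6 IP (vertical) for members of 5 groups of genes, with a dashed line where both are equal. Ribosomal protein and oxidative phosphorylation genes lie mostly left of 0 on the horizontal axis and near 0 on the vertical one, apart from Cox8b at 1.78 and 4.37, which was not called in input, whereas Sgk1, Klf9 and Fkbp5 lie below the dashed line.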

How the data were processed

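Pooled septa of RS and naive mice gave 8 RNA-seq libraries, made from low-input cDNA. The authors deposited 1 table a library, under the name FPKM, whose values sum to 1000000 and were therefore treated as TPM. The labels name STAR, DESeq2 and mm10 and the methods TopHat and Cufflinks, so which aligner made the tables is not settled, and versions are not given in the sources used here. Depth is unknown. Symbols turned into dates were left out, and 14365 symbols with at least 1 TPM in at least 2 libraries were tested on log2(TPM + 1), which understates changes of low genes, with limma 3.58.1 in R 4.3.3 (4 groups, 1 shared spread, intensity trend, Benjamini-Hochberg adjustment, threshold 0.05). Labels do not say whether pools came from separate experiments, so p-values measure the spread between pools. Lengths came from GENCODE M21 and promoters from RefSeq (GRCm38.p6). Named genes were a fixed set of 11, called genes of largest change at a mean of at least 5 TPM with pools that do not overlap, and list members of largest moderated statistic. Fkbp5, Per1, Npas4, Mt1, Mt2, Otx2, Aqp1, Sostdc1, Gad2, Cox8b, Hspa1a, Hspa1b and Xist, and members named only to spell out a count, fall outside this rule. Some genes are not reported here. Members and lists were chosen with earlier results of these data known. Alternatives changed the pseudocount, filter, scaling, samples, trend, block and length correction. The test was tried on simulated data.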

Additional observations from a re-analysis of the deposited data

Results flagged for a closer look

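Of the 89 named genes, 44 had an RS effect that differed between pS6 IP and input in limma (interaction term, adjusted p under 0.05), 30 with the higher value in IP and 14 with the lower. Over all genes tested, the difference was called higher for 3.29% and lower for 3.46%. Most named genes were picked by their change in input, which is a part of this difference. The count of 44 is therefore no estimate of how common such differences are. The values below are IP change minus input change, in log2(TPM + 1), with 2 libraries in each of the 4 groups. Input and IP of a pool were treated as independent. Among activity-regulated and peptide genes, the IP change exceeded the input change for Fos (0.84), Fosb (1.11), Junb (0.68), Atf3 (1.22), Rrad (1.23), Nfil3 (1.02), Nts (1.11), Cartpt (0.88), Sst (0.39) and Tac2 (0.72). Among stress-hormone, clock and chaperone genes it did so for Cdkn1a (0.70), Per1 (0.81), Mt1 (0.71), Mt2 (0.69), Atf4 (0.83), Dnajb1 (0.40) and Hspe1 (0.50). Among choroid plexus and mural genes it did so for Ttr (1.16), Kcne2 (1.53), Cldn2 (1.14), Enpp2 (0.43), Acta2 (1.26) and Tagln (1.12). Among short transcripts of ribosomal and respiratory genes it did so for Rps21 (0.96), Rpl36 (0.87), Rps7 (0.56), Cox7b (0.65) and Ndufb3 (0.44). It also did so for Gas5 (1.05) and Prpf19 (1.48). The IP change was below the input change for the glucocorticoid-responsive and clock genes Sgk1 (-1.08), Klf9 (-1.29), Fkbp5 (-0.89) and Npas2 (-0.51). The same held for the striatal, cortical and peptide genes Drd1 (-0.70), Ppp1r1b (-0.44), Scn4b (-0.63), Slc17a7 (-0.52), Pdyn (-0.65) and Penk (-0.30). It held as well for the oligodendrocyte genes Trf (-0.56) and Cnp (-0.42). Beyond the lists it held for Chtf8 (-2.41) and Amd1 (-1.54). Adjusted p ran between 0.000267 (Chtf8) and 0.0477 (Rrad). Most of these calls rested on both naive input pools. Without naive input pool 1, 6 of the 44 were still called, and without naive input pool 2, 3 (Chtf8, Tagln and Acta2). Without RS input pool 1 there were 35, without RS input pool 2 37, without the intensity trend 5, without the filter on low values 24, and after the length and GC correction 33. After that correction Sst had 0.11 (adjusted p = 0.372) and Rpl36 0.37 (adjusted p = 0.207). No direction turned in any of these settings. Causes were not tested.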

How the results depend on the processing

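With a pseudocount of 0.1, changes of at least 2-fold were called for 140 genes higher and 125 lower, and with a pseudocount of 5 for 30 and 24. Without the filter on low values the IP minus input difference was called higher for 121 genes and lower for 125, and without the intensity trend for 24 and 11. Median-of-ratios scaling gave 1138 genes higher and 1771 lower, 40 and 114 at 2-fold, and 187 with a lower IP minus input difference, and it turned Mal (-0.13). The length and GC correction, chosen after the data were seen, gave 943 higher, 47 lower at 2-fold, and an IP minus input difference higher for 238 and lower for 140 genes. It turned Mal (-0.072), Glp1r (-0.039), Per1 (-0.17) and Mt2 (0.053). Leaving out 1 input pool gave 1070 to 2383 genes higher, 674 to 1144 lower, 65 to 96 higher and 68 to 146 lower at 2-fold, and 16 to 683 higher and 8 to 642 lower for the IP minus input difference, with Mal between -0.047 and 0.078. The causes of these shifts were not tested.

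Between RS and naive, equal pool numbers name different mice and did not pair the groups by the labels. Input and IP of a pool, by the methods, came from the same lysate, which the main fit did not model. With the pool as a random block the consensus correlation was -0.007, and 2919 genes were higher and 1177 lower in input. The 44 differences between IP and input flagged above were all still called in that fit. The pool 2 minus pool 1 differences of RS and naive input had r of 0.159 over 14365 genes, and there were only 2 pairs. A replicate block over all 8 libraries gave 271 genes higher and 190 lower for the IP minus input difference. A replicate block in the input libraries alone gave 1150 higher and 640 lower. Depth is unknown, and 2 pools a group cannot go below p = 0.333 in an exact two-sided permutation test, so calls rest on the spread pooled over groups. On simulated data for this comparison (14365 genes), 89 of 100 genes changed by a log2 of 1 were called, and 49 of 100 changed by 0.5, with 5 false calls. The changed genes were few and drawn from the better expressed, and no change with length was put in. The recovery therefore need not hold for low genes or for changes as widespread as those found here.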
